A study of Mus musculus with 12 samples.

Results

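Expression of 10 genes that act on newly made collagen chains in the endoplasmic reticulum was followed in 10T1/2 cells, a line of mouse mesenchymal progenitors (C3H10T1/2). The genes were chosen by name, and earlier results of these data were known when they were chosen. They are the 3 α subunits of collagen prolyl 4-hydroxylase (P4ha1, P4ha2 and P4ha3), their shared β subunit (P4hb), the 3 lysyl hydroxylases (Plod1, Plod2 and Plod3), the collagen galactosyltransferase Colgalt1, Crtap of the prolyl 3-hydroxylation complex, and the collagen chaperone Serpinh1 (HSP47). All 10 were among the 56748 genes of the count table, and all 10 were among the 16465 that passed the filter on low counts and were tested.

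The libraries came from 3 groups of 4. Every group was starved overnight in low serum (0.5%) and passed 1 h in suspension in medium without serum. The cells then spent 18 h in low serum (0.5%) on hydrogels of 12 kPa that carried type I collagen (0.05 mg/ml). Nothing was added to the collagen in col1. In col1-ACLP, recombinant aortic carboxypeptidase-like protein (ACLP) was polymerized with the collagen at 30 nM. In col1-ACLP+SB the same matrix was used, and SB431542, an inhibitor of the TGFβ receptor kinase ALK5, was given at 5 µM during seeding. SB431542 was never given on col1 without ACLP, so an effect of the inhibitor that does not depend on ACLP cannot be told apart from a change in the response to ACLP. The cells were wild type and of a single line. The ACLP had the mouse sequence with a myc-His tag and was made in AD293 cells. The study asked with these groups which transcripts respond to ACLP held in collagen, and which of those responses remain when ALK5 is inhibited.

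Collagen chains are hydroxylated on proline and lysine, glycosylated on hydroxylysine and folded into a triple helix before they leave the endoplasmic reticulum. Hydroxyproline holds the helix together at body temperature, and hydroxylysine carries sugars and takes part in crosslinks between mature fibrils. The hydroxylases need oxygen, iron and ascorbate, and in fibrotic tissue their activity goes with the deposition of stiff, crosslinked collagen.

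Depth was similar across the groups, with 29246154 to 52201922 counts per library. The 10 genes drew from 1148 to 90783 counts in a library, so that counting error alone gave a coefficient of variation of at most 2.95%, against a median of 4.34% between replicates of a group. On the first principal component (19.5% of the variance), col1 replicate 2 stood at -86.7, the other col1 libraries between -11.1 and -8.97, and the 8 libraries with ACLP between 10.0 and 20.6. Results were therefore also computed without col1 replicate 2. The defining markers of mesenchymal progenitors were present, with 7 of 7 counted in every group and a summed level from 13880 to 14432 CPM (counts scaled to a common library size) on col1, 16828 to 19191 on col1-ACLP and 15653 to 16756 on col1-ACLP+SB. Col1a2, a collagen that is also described below, carried this increase: the sum of the other 6 markers, computed after the data had been seen, was 6685 to 6964, 6097 to 6449 and 6167 to 6447 CPM, and of the 7 markers 1 rose and 3 fell on col1-ACLP against col1, with a median log2 fold change of -0.088. The part of these markers in the results was not tested. Markers of other cell types were near 0: the epithelial, endothelial, immune, adipocyte and skeletal muscle sums stayed at or under 10.0 CPM in each library, with Epcam, Adgre1, Cd3e, Myod1 and Myog at 0 throughout. The neural sum ran from 9.93 to 13.7 CPM on col1, from 14.3 to 19.0 on col1-ACLP and from 14.9 to 16 on col1-ACLP+SB, with Sox10 at 0 in all libraries. The part of this list was not tested either.

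The promoter sequences of P4ha1, P4ha2, P4ha3 and Plod1 are shown because these were the 4 genes past the fold threshold on col1-ACLP. They come from RefSeq (GRCm38.p6), run 5′ to 3′ on the gene's strand, and hold 250 bases before and 50 bases after the annotated start. Capitals mark ACGTG and GCGTG, the forms of the core that hypoxia-inducible factors bind, on either strand (CACGT and CACGC when on the opposite strand). The search for GCGTG was added after the data had been seen.
P4ha1 (chr10:59323046-59323345, plus strand): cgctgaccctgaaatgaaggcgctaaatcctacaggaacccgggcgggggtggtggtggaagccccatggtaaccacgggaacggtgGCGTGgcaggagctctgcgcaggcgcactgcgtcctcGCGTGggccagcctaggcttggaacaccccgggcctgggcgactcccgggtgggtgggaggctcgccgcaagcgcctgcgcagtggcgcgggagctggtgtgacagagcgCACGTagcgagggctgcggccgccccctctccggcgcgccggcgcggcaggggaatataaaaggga
P4ha2 (chr11:54100674-54100973, plus strand): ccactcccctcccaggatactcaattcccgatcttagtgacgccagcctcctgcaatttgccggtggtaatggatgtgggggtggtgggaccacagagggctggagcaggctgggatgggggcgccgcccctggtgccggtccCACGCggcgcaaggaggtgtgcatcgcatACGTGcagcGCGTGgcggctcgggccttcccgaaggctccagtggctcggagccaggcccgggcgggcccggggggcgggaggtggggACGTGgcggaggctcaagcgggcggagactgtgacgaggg
P4ha3 (chr7:100285270-100285569, plus strand): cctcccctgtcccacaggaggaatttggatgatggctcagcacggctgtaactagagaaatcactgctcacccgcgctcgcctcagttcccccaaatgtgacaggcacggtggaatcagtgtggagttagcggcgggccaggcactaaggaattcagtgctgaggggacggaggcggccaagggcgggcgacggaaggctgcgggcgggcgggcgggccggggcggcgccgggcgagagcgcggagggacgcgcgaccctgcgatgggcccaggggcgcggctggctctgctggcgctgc
Plod1 (chr4:147936727-147937026, minus strand): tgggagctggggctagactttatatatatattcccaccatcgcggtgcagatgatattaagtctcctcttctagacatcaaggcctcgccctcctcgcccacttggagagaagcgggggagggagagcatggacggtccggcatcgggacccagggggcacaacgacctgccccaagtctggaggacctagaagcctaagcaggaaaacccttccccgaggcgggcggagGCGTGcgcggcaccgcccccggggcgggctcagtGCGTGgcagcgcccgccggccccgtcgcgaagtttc
The ACGTG form begins at -16 from the start in P4ha1 and at -78 and 11 in P4ha2. The GCGTG form begins at -163 and -126 in P4ha1, at -107 and -69 in P4ha2 and at -20 and 15 in Plod1. P4ha3 has a match of neither form in this window.

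Promoter windows were listed for 9 of the 10 genes (Colgalt1 has 2 overlapping windows, which makes 10 windows). All were rich in CpG, with 16 to 32 CpG in 300 bases and a GC content from 51.0% to 70.3%, against a median of 7 CpG and 52.7% over the 32851 windows of the table. Beside P4ha1 and P4ha2, the ACGTG form was present in Plod3 (-54), P4hb (-56 and 36) and Serpinh1 (-171), which makes 5 of 9 genes. Of all windows, 19.6% held it, and of the 10841 windows with at least 16 CpG, 28.5% did. Either form was present in 8 of the 9 genes, all but P4ha3, and in 43.8% of all windows and 71.8% of those with at least 16 CpG. The letters CAGAC, a core bound by SMAD proteins, were found in 5 genes (Plod1, P4hb, Serpinh1, Crtap and Colgalt1) and in 49.6% of all windows. GGAATG, bound by TEAD proteins, was found in P4hb and in 14.7% of all windows. In P4hb the CAGAC match at 33 shares bases with the ACGTG match at 36 and with the GGAATG match at 28. The CArG box of serum response factor was in 0 of the 10 windows (1.63% of all windows), and so was the endoplasmic reticulum stress element, CCAAT and CCACG parted by 9 bases (0.119%). Of the windows with at least 16 CpG, 44.2% held CAGAC, 9.33% GGAATG, 1.11% the CArG box and 0.12% the stress element. Both strands were searched for each motif. These matches describe the letters of the windows, and binding was not measured.

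Each library's level is given as CPM with TMM scaling, which sets libraries of unequal size on 1 scale. The main catalytic subunit, P4ha1 (ENSMUSG00000019916, GRCm39 chromosome 10, 59159118 to 59209126), stood at 230, 211, 211 and 202 CPM in the 4 col1 libraries, at 370, 408, 373 and 410 on col1-ACLP, and at 360, 361, 360 and 366 on col1-ACLP+SB. The lowest library with ACLP was thus well above the highest col1 library, and the col1-ACLP+SB libraries all lay under the lowest col1-ACLP library. P4ha1 was 1.83-fold higher on col1-ACLP than on col1, a log2 fold change of 0.87 with an SE of 0.0486 (n = 4 per group, adjusted p = 8.20e-13 in the quasi-likelihood test of edgeR, adjusted by Benjamini-Hochberg). All adjusted p-values of single genes below come from that test and cover the 16465 genes. In bulk RNA, a change in the number of cells that make a transcript and a change in the amount per cell cannot be told apart.

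**Figure D1:**
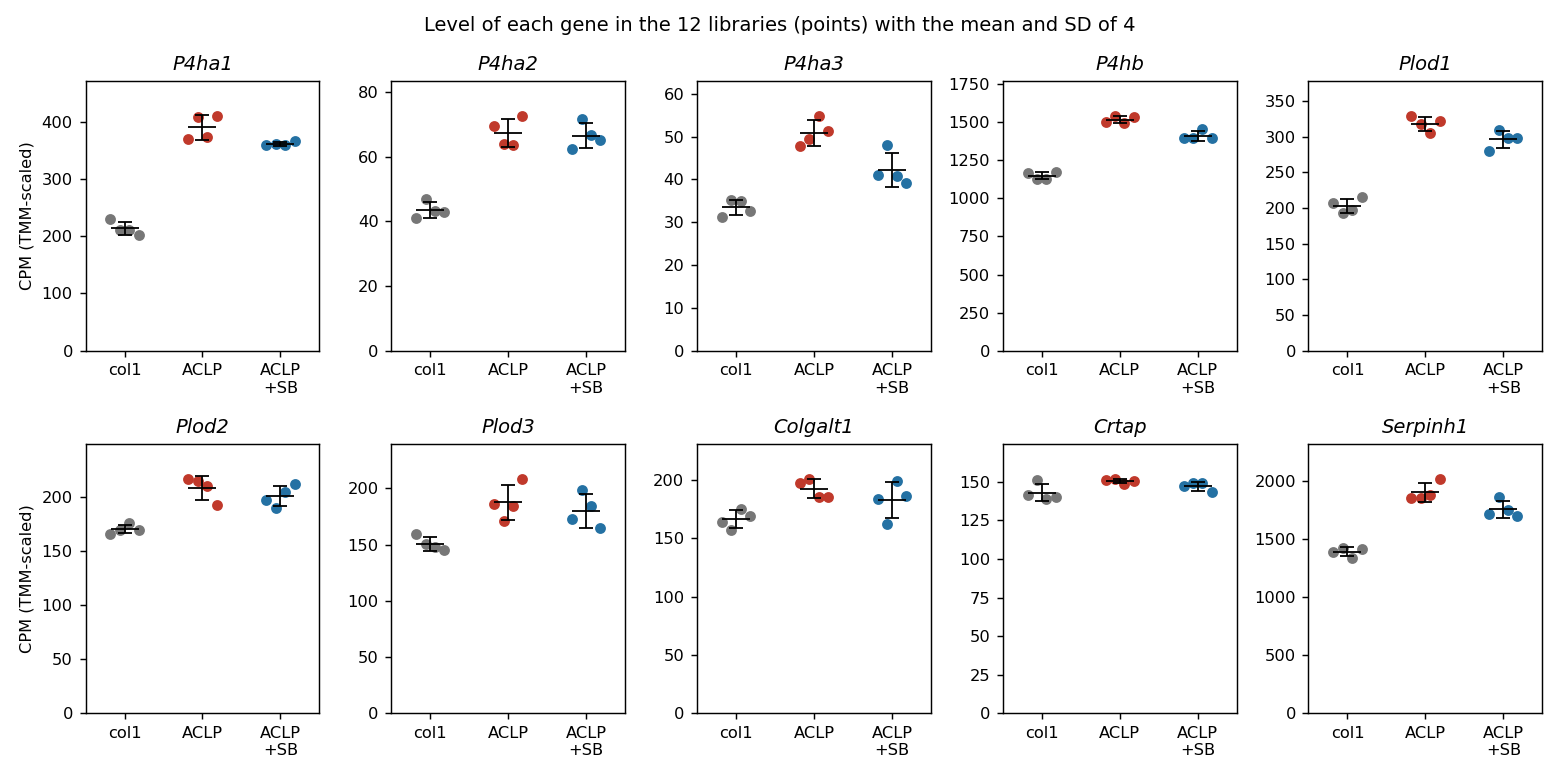
Level of each of the 10 genes in each library, in CPM with TMM scaling, with 1 panel per gene, points for the 4 libraries of col1, col1-ACLP and col1-ACLP+SB, and bars for the mean and SD. In 9 panels, all but Crtap, every col1-ACLP library lies above every col1 library.

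The minor α subunits were expressed at lower levels and were also higher with ACLP. P4ha2 (ENSMUSG00000018906, chromosome 11, 53990921 to 54022491) stood at 40.9, 46.8, 43.2 and 42.7 CPM on col1, at 69.4, 63.9, 63.5 and 72.5 on col1-ACLP, and at 62.3, 71.6, 66.7 and 65.2 on col1-ACLP+SB. Both groups with ACLP lay above col1 without overlap, and they overlapped with each other. The log2 fold change of P4ha2 on col1-ACLP against col1 was 0.63 with an SE of 0.0665 (adjusted p = 6.97e-08, edgeR). P4ha3 (ENSMUSG00000051048, chromosome 7, 99934727 to 99968906) stood at 31.3, 35.1, 34.8 and 32.6 CPM on col1, at 47.9, 49.4, 54.7 and 51.2 on col1-ACLP, and at 41.0, 48.1, 40.7 and 39.2 on col1-ACLP+SB. With the inhibitor, 3 of 4 libraries lay between the col1 and col1-ACLP ranges, and replicate 2 reached the lowest col1-ACLP library. The log2 fold change of P4ha3 was 0.60 with an SE of 0.0752 (adjusted p = 1.14e-06, edgeR) on col1-ACLP against col1.

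The β subunit P4hb (ENSMUSG00000025130, chromosome 11, 120451124 to 120464079) is protein disulfide isomerase, which keeps the α subunits soluble and also forms disulfide bonds in many other proteins. It stood at 1169, 1129, 1128 and 1176 CPM on col1, at 1502, 1540, 1496 and 1534 on col1-ACLP, and at 1394, 1394, 1458 and 1397 on col1-ACLP+SB. The 3 groups did not overlap, with col1-ACLP highest and col1-ACLP+SB between the others. P4hb was 1.32-fold higher on col1-ACLP than on col1 (log2 fold change 0.40, SE 0.0352, adjusted p = 3.29e-09, edgeR).

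Of the lysyl hydroxylases, which modify lysine in the helix (Plod1) and in the telopeptides that form crosslinks (Plod2), Plod1 had the largest increase. Plod1 (ENSMUSG00000019055, chromosome 4, 147994210 to 148021224) stood at 206, 193, 197 and 215 CPM on col1, at 328, 317, 305 and 321 on col1-ACLP, and at 280, 309, 298 and 298 on col1-ACLP+SB. No col1 library reached a library with ACLP. The log2 fold change of Plod1 was 0.65 with an SE of 0.0475 on col1-ACLP against col1 (1.57-fold, adjusted p = 1.11e-10, edgeR). Plod2 (ENSMUSG00000032374, chromosome 9, 92424276 to 92490481) stood at 166, 169, 175 and 169 CPM on col1, at 216, 215, 210 and 192 on col1-ACLP, and at 197, 189, 205 and 211 on col1-ACLP+SB. It rose by a log2 fold change of 0.29 (SE 0.0500, adjusted p = 9.68e-05, edgeR) on col1-ACLP. Plod3 (ENSMUSG00000004846, chromosome 5, 137015873 to 137025502), which also carries a glycosyltransferase activity, stood at 159, 150, 148 and 145 CPM on col1, at 186, 171, 185 and 208 on col1-ACLP, and at 172, 199, 184 and 164 on col1-ACLP+SB. The log2 fold change of Plod3 on col1-ACLP was 0.31 (SE 0.0616, adjusted p = 5.17e-04, edgeR). For Plod2 and Plod3 too, both groups with ACLP lay wholly above col1. The increases were 1.23-fold and 1.24-fold on col1-ACLP, and 1.18-fold and 1.19-fold on col1-ACLP+SB.

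Serpinh1 (ENSMUSG00000070436, chromosome 7, 98994583 to 99002446) is a chaperone that binds the folded procollagen helix. It stood at 1386, 1423, 1337 and 1414 CPM on col1, at 1850, 1856, 1878 and 2016 on col1-ACLP, and at 1712, 1858, 1751 and 1700 on col1-ACLP+SB. The libraries with ACLP lay above all col1 libraries, and the gene was 1.37-fold higher on col1-ACLP (log2 fold change 0.45, SE 0.0394, adjusted p = 2.93e-09, edgeR). Colgalt1 (ENSMUSG00000034807, chromosome 8, 72063642 to 72077555), which adds galactose to hydroxylysine, stood at 164, 157, 175 and 169 CPM on col1, at 198, 201, 186 and 186 on col1-ACLP, and at 184, 163, 199 and 186 on col1-ACLP+SB. It was higher on col1-ACLP by 0.21 on the log2 scale (SE 0.0567, adjusted p = 0.00941, edgeR), and the adjusted p was 0.0557 with scaling by library size alone. Crtap (ENSMUSG00000032431, chromosome 9, 114204202 to 114219743) helps the prolyl 3-hydroxylase P3h1 act on a few prolines. It stood at 141, 151, 139 and 140 CPM on col1, at 151, 152, 149 and 151 on col1-ACLP, and at 147, 149, 149 and 143 on col1-ACLP+SB, with all 3 groups overlapping. Its log2 fold change on col1-ACLP was 0.077, with a 95% interval from -0.019 to 0.17 (adjusted p = 0.304, edgeR).

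Some of these counts can hold reads of another gene, since the strand setting of the counting is not given in the sources used here. Exons on the opposite strand overlap Colgalt1 over 2758 bases (Unc13a, a mean of 10.4 CPM), Plod3 over 575 (Znhit1, 15.6 CPM), Plod2 over 503 (B430319G15Rik, 2.35 CPM) and Crtap over 877 (4930520O04Rik, 0.745 CPM). P4hb is overlapped over 788 bases by Gm57341, for which no level is given here. Colgalt1, with means of 166 ± 7.57 CPM on col1 and 192 ± 7.93 on col1-ACLP (SD, n = 4), has the longest overlap, and the difference between its groups is uncertain to that extent.

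Of the 10 genes, 9 rose on col1-ACLP against col1 at an adjusted p under 0.05 and none fell, and in all 9 the groups did not overlap. Over all genes tested, 9.52% rose and 8.41% fell at that threshold, and 10.9% did not overlap with col1-ACLP higher. The study's own threshold also asks for a log2 fold change beyond 0.58 (1.49-fold), and 4 genes passed it (P4ha1, Plod1, P4ha2 and P4ha3), against 2.61% of all genes tested. The median log2 fold change of the 10 was 0.43, and that of all genes was -0.0099. P4ha3 lay close to the fold threshold: its log2 fold change was 0.57 without col1 replicate 1, 0.57 without col1-ACLP replicate 3 and 0.55 with scaling by library size alone. Without col1 replicate 2, the same 4 genes were called, with log2 fold changes from 0.63 to 0.86.

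With ALK5 inhibited, 8 genes were higher than on col1 at an adjusted p under 0.05 (4.6% of all genes tested) and in the same 8 the groups did not overlap (6.7% of all genes). P4ha1 (log2 fold change 0.76, SE 0.0485, adjusted p = 2.47e-11, edgeR) and P4ha2 (0.61, SE 0.0664, adjusted p = 2.46e-07) passed the fold threshold as well, against 1.27% of all genes tested. Plod1 was close under it at 0.55 (SE 0.0474, adjusted p = 6.38e-09, edgeR). P4ha3 and Serpinh1 both had a log2 fold change of 0.34 (adjusted p = 0.00357 and 8.42e-07, edgeR), P4hb had 0.29, Plod3 0.26 and Plod2 0.24. Colgalt1 (0.14, adjusted p = 0.149) and Crtap (0.043, adjusted p = 0.694) did not pass edgeR's test, and their groups overlapped. Without col1-ACLP+SB replicate 2, P4ha2 was under the fold threshold (0.578), and Colgalt1 reached an adjusted p of 0.0200. The median log2 fold change of the 10 genes was 0.31, beside 0.0046 over all genes.

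**Figure D2:**
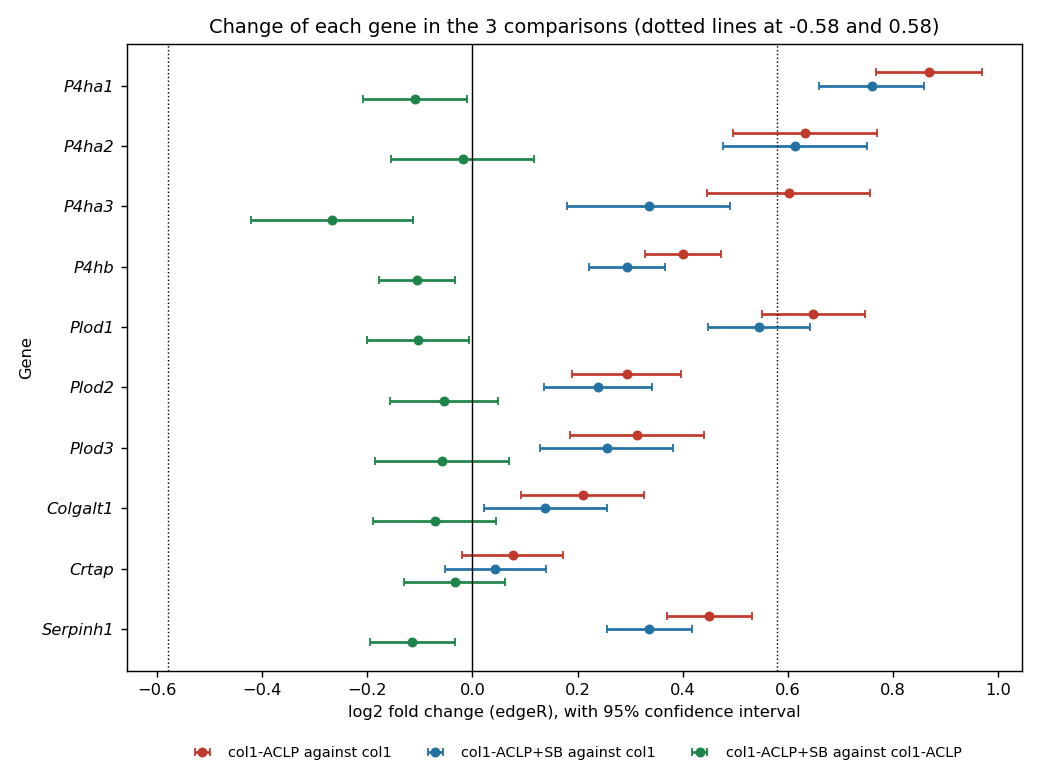
Log2 fold change of each gene in the 3 comparisons, as points with 95% intervals from edgeR, with the fold threshold of 0.58 drawn as a line. Against col1 the estimates of all 10 genes lie above 0, and in col1-ACLP+SB against col1-ACLP all 10 lie below 0, 5 of them with an interval that includes 0.

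The difference made by the inhibitor was then tested directly. None of the 10 genes differed between col1-ACLP+SB and col1-ACLP at an adjusted p under 0.05 in edgeR (0 of 10, against 1.48% of all genes tested, and 0.128% past the fold threshold as well). At an unadjusted p under 0.05, 5 of the 10 were lower in edgeR, as were 6.63% of all genes. At an adjusted p under 0.05, DESeq2 gave 2 lower (P4ha3 and P4hb), against 3.01% of the 11357 genes to which it gave an adjusted p, and limma-voom gave 0. P4ha3 had the largest difference of the 10, -0.27 on the log2 scale with a 95% interval from -0.42 to -0.11 (adjusted p = 0.0733, edgeR). Its adjusted p was 0.0368 with no filter on low counts, 0.0210 in DESeq2 and 0.0221 without col1-ACLP+SB replicate 2, where the difference was -0.33. For Serpinh1, P4ha1 and P4hb the difference was -0.11, with intervals from -0.20 to -0.033, from -0.21 to -0.010 and from -0.18 to -0.033. Plod1 differed by -0.10 (interval -0.20 to -0.0059). In P4ha1 and P4hb every library with the inhibitor lay under every col1-ACLP library, which 4.52% of all genes did. The intervals of the other 5 genes included 0, from P4ha2 at -0.019 (interval -0.15 to 0.12) to Colgalt1 at -0.072 (interval -0.19 to 0.045). A p that misses the threshold does not show that the inhibitor left these genes as they were. The estimates of all 10 genes lay below 0, as did those of 48.8% of all genes. These 3 comparisons share libraries and are not independent of one another.

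Compared per length of transcript, the 10 genes spanned a wide range of levels. On col1, Serpinh1 stood at 569 ± 15.8 FPKM (mean ± SD, n = 4, fragments per kilobase of gene, scaled to library size, from the counts and the gene lengths in the file), P4hb at 402 ± 8.96, Crtap at 80.6 ± 3.15 and P4ha1 at 51.9 ± 2.82. Colgalt1 (38.5 ± 1.75), Plod3 (33.4 ± 1.34), Plod2 (31.5 ± 0.736) and Plod1 (30.0 ± 1.45) followed, and P4ha3 (10.7 ± 0.58) and P4ha2 (6.96 ± 0.391) came last. Serpinh1 and P4hb were thus among the most abundant transcripts of these cells, at percentiles 99.8 and 99.7 of the genes tested. Neighbours in this order overlapped only for Plod3 with Plod2 and for Plod2 with Plod1.

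On col1-ACLP the order of levels differed in the middle. P4ha1 (94.8 ± 5.28 FPKM) passed Crtap (85.0 ± 0.748 FPKM), and Plod1 had the highest mean of the lysyl hydroxylases, at 47.0 FPKM beside 41.5 for Plod3 and 38.6 for Plod2. Each of Plod1, Colgalt1, Plod3 and Plod2 overlapped with its neighbour in the order, whereas Plod1 (45.1 to 48.5 FPKM) and Colgalt1 (42.9 to 46.4) lay wholly above Plod2 (35.7 to 40.1). With the gene lengths in the file, the order of means on col1-ACLP+SB was that on col1-ACLP. These levels depend on the length used: with the longest annotated transcript, Serpinh1 (6054 bases in place of 2443) came after P4hb, at 230 against 347 FPKM on col1, and the lysyl hydroxylases on col1 were ordered Plod2 (39.2), Plod1 (34.2) and Plod3 (31.7 FPKM). On col1-ACLP that length put Colgalt1 (37.1 FPKM) under Plod2 (48.0), and on col1-ACLP+SB it put P4ha2 (19.2) above P4ha3 (17.4), which on col1-ACLP stood at 19.4 and 20.9.

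**Figure D3:**
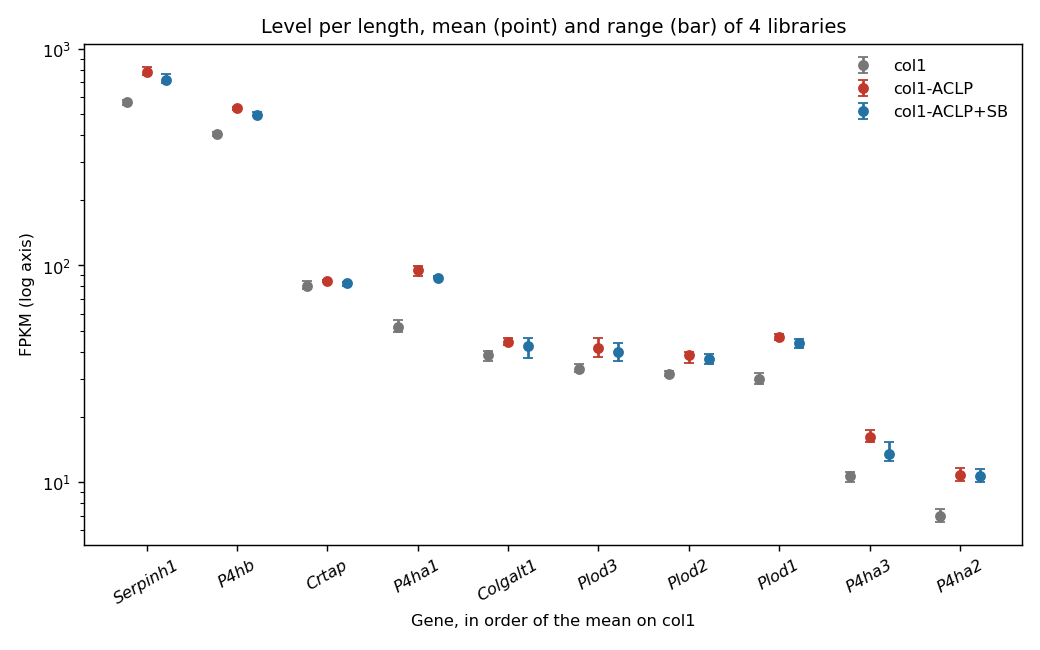
Level per length of the 10 genes in FPKM on a log axis, in the order of the col1 means, with the mean as a point and the range of 4 libraries as a bar for each group. Serpinh1 and P4hb lie far above the other genes, and P4ha1 passes Crtap in both groups with ACLP.

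Within the α subunits of prolyl 4-hydroxylase, P4ha1 made up 74.6% ± 1.72 of the summed FPKM on col1, 77.8% ± 1.12 on col1-ACLP and 78.5% ± 1.30 with the inhibitor (SD, n = 4). P4ha3 held 15.4%, 13.3% and 12.0%, and P4ha2 10.0%, 8.87% and 9.50%. These shares depend on the length used: with the longest annotated transcript (3469 bases for P4ha2 in place of 6239), an alternative added after the data had been seen, P4ha2 held 15.9%, 14.3% and 15.3%, P4ha3 17.5%, 15.4% and 13.8%, and P4ha1 66.6%, 70.4% and 70.9%. The sum of the 3 went from 69.6 ± 2.46 to 122 ± 5.39 and 112 ± 1.80 FPKM. P4hb, which is also used outside this enzyme, stood at 5.79 ± 0.266 FPKM per FPKM of α subunits on col1, at 4.36 ± 0.137 on col1-ACLP and at 4.40 ± 0.139 on col1-ACLP+SB. The col1 libraries (5.63 to 6.18) did not overlap with those on col1-ACLP (4.20 to 4.52) or with the inhibitor (4.25 to 4.59), and P4hb was in excess in all of them. With the longest transcripts the 3 means were 4.41, 3.36 and 3.39.

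The 6 ratios between genes were compared within libraries, in 18 exact two-sided permutation tests over 35 splits, where the smallest p that can be reached is 0.0286. The log2 ratio of P4ha2 to P4ha1 differed from col1 by -0.24 on col1-ACLP (exact permutation p = 0.0571, adjusted 0.147). With the inhibitor it differed by -0.15 (exact permutation p = 0.143, adjusted 0.286), and the groups overlapped in both comparisons. The log2 ratio of P4ha1 to P4hb was higher by 0.47 on col1-ACLP and by 0.47 on col1-ACLP+SB than on col1 (exact permutation p = 0.0286 for each, 0.0857 after Benjamini-Hochberg adjustment over the 18). In linear terms the ratio ran from 0.120 to 0.137 on col1, from 0.171 to 0.186 on col1-ACLP and from 0.172 to 0.182 on col1-ACLP+SB, with no overlap of col1 with the others. Between the groups with and without inhibitor it differed by -0.0016 (exact permutation p = 1).

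The ratio of Plod2 to Plod1 ran from 0.987 to 1.12 on col1, from 0.751 to 0.863 on col1-ACLP and from 0.770 to 0.890 on col1-ACLP+SB. The log2 difference from col1 was -0.36 with ACLP alone and -0.31 with ACLP and the inhibitor, again without overlap and at the smallest p (exact permutation p = 0.0286, adjusted 0.0857). Plod1 held 31.6% ± 1.24 of the lysyl hydroxylase FPKM on col1, 37.0% ± 0.710 on col1-ACLP and 36.2% ± 0.540 with the inhibitor (SD, n = 4), and 32.5%, 38.0% and 37.2% with the longest transcripts.

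The enzymes were also set against a substrate, Col1a1, the α1 chain of type I collagen. The log2 ratio of P4ha1 to Col1a1 differed from col1 by 0.060 on col1-ACLP (exact permutation p = 0.629), and that of Plod1 by -0.16 (exact permutation p = 0.114). The P4ha1 value was -0.018 without col1-ACLP replicate 2 and 0.11 without col1-ACLP replicate 4, so its direction was not resolved, and the Plod1 value ran from -0.21 to -0.088 over left-out libraries. With the inhibitor, the P4ha1 value against col1 was 0.14 (exact permutation p = 0.171, from 0.089 to 0.21 over left-out libraries) and the Plod1 value was -0.074 (exact permutation p = 0.371, from -0.12 to -0.025). The ratio of Serpinh1 to Col1a1 ran from 0.306 to 0.318 on col1, from 0.222 to 0.268 on col1-ACLP and from 0.236 to 0.274 on col1-ACLP+SB. Its log2 difference from col1 was -0.36 with ACLP alone and -0.28 with ACLP and the inhibitor (exact permutation p = 0.0286 each, adjusted 0.0857). Per 1000 FPKM of 5 fibrillar collagen genes (Col1a1, Col1a2, Col3a1, Col5a1 and Col5a2), the α subunits stood at 19.5, 22 and 23.0 FPKM in the 3 groups, in the order col1, col1-ACLP, col1-ACLP+SB. The lysyl hydroxylases stood at 26.6, 22.9 and 24.8, P4hb at 113, 95.9 and 101, and Serpinh1 at 160, 140 and 147. These levels per collagen were not tested. The α subunit ranges on col1 (18.4 to 20.7) and col1-ACLP (20.2 to 24.8) overlapped. With the inhibitor (21.5 to 24.6) they lay above col1. The lysyl hydroxylases on col1 (25.7 to 27.6) lay above col1-ACLP (20.5 to 24.6) and overlapped with col1-ACLP+SB (23.4 to 26.2). For P4hb and Serpinh1, both groups with ACLP lay under col1. None of the 18 ratio tests passed after adjustment, and 6 were at the smallest p.

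**Figure D4:**
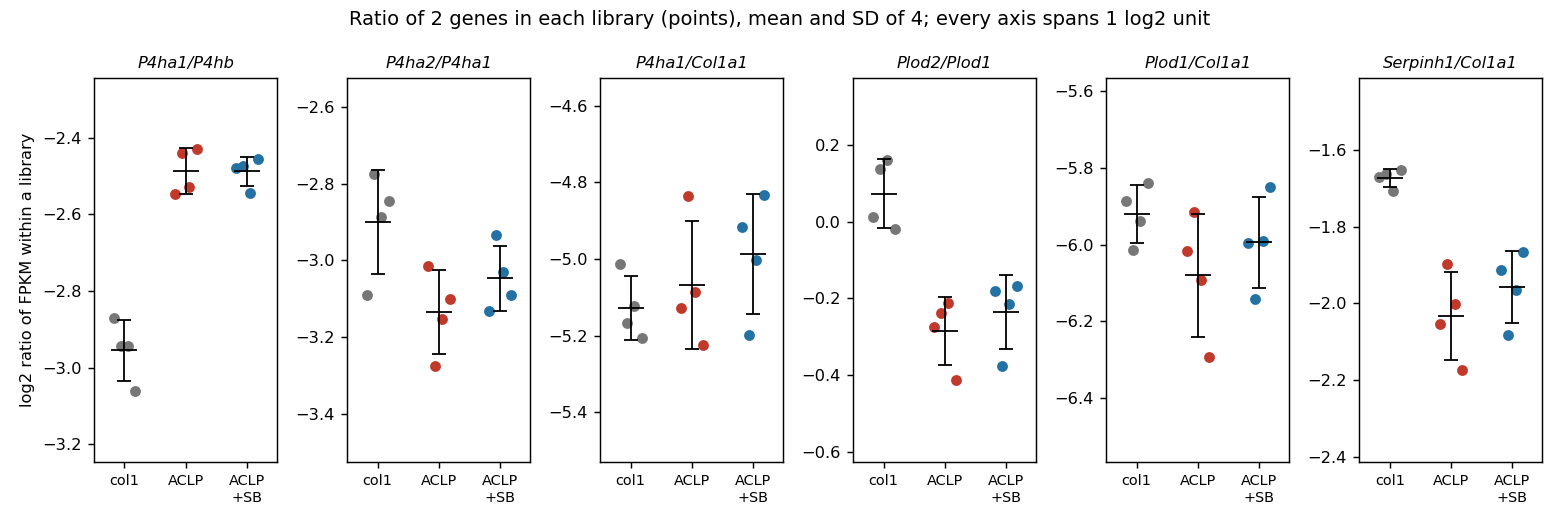
Ratios between genes in each library as log2 of the FPKM ratio, in 6 panels, with points for the 4 libraries of each group and a bar for the mean. P4ha1 over P4hb is higher, and Plod2 over Plod1 and Serpinh1 over Col1a1 lower, in every library with ACLP than in every col1 library.

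Most of the substrates rose with ACLP as well. Of 6 fibrillar collagen genes, 5 rose on col1-ACLP past the fold threshold: Col11a1 by a log2 fold change of 1.11, Col5a1 by 0.93, Col5a2 by 0.86, Col1a1 by 0.82 and Col1a2 by 0.65. Col3a1 had 0.073 (adjusted p = 0.154, edgeR). With the inhibitor the same 5 genes had log2 fold changes against col1 of 0.77, 0.62, 0.55, 0.63 and 0.44. Between the groups with and without inhibitor, 4 of the 6 fell by the adjusted p (Col11a1 by 0.34, Col5a2 by 0.30, Col5a1 by 0.30 and Col1a2 by 0.21), whereas Col1a1 had -0.19 (adjusted p = 0.129, edgeR).

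Of 12 other genes of collagen modification and folding, 7 rose on col1-ACLP by the adjusted p and none fell, with a median log2 fold change of 0.22. Sparc, a collagen-binding matricellular protein, rose by 0.43 (adjusted p = 1.77e-10, edgeR), and the smallest increases that passed were those of the isomerase Ppib and of P3h4, both by 0.22. Colgalt2, the paralog of Colgalt1, was the single gene past the fold threshold and rested on very few reads: 2 counts in 1 of the 4 col1 libraries, 48 in the 4 col1-ACLP libraries and 30 in 3 of the 4 col1-ACLP+SB libraries (adjusted p = 0.0137 for col1-ACLP against col1, edgeR). With the inhibitor, 4 of the 12 were higher than on col1, with a median of 0.15.

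General chaperones of the endoplasmic reticulum rose in most cases. On col1-ACLP, 13 of 15 rose by the adjusted p, none fell and none passed the fold threshold, with a median log2 fold change of 0.35. Hyou1 (0.57) and Hsp90b1 (0.50) led, and Creld2 (0.22) and Dnajb11 (0.28) had the smallest increases that passed. With the inhibitor 10 of 15 were higher than on col1 (median 0.21), and 4 of 15 were lower than on col1-ACLP (median of the list -0.13), Hsp90b1 by -0.22 (adjusted p = 0.00465, edgeR). The increases of P4hb and Serpinh1 on col1-ACLP, 0.40 and 0.45 on the log2 scale, lay within the range of these chaperones.

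Genes of procollagen export and of propeptide removal did not move in 1 direction. Of 15 export genes, 6 rose on col1-ACLP and 1 fell, with a median of 0.12. The retrieval receptor Kdelr3 (0.42) and the COPII coat subunit Sec13 (0.41) rose most, and Klhl12, an adaptor for COPII ubiquitylation, fell by 0.30 (adjusted p = 0.0393, edgeR). Of the 6 propeptide genes tested of 8, 2 rose and 2 fell: the enhancer Pcolce2 by 0.60 and the proteinase Tll1 by 0.49 upward, and the N-proteinase Adamts14 by -1.78 (adjusted p = 1.56e-11, edgeR) and the C-proteinase Bmp1 by -0.39 (adjusted p = 3.29e-07). Bmp1 was higher with the inhibitor than without it by 0.25 (adjusted p = 0.00375, edgeR).

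P4ha1, P4ha2, Plod1 and Plod2 are known targets of hypoxia-inducible factors, so other genes of that response were counted. Of the 11 tested of 12, 6 rose on col1-ACLP and 2 fell, with a median of 0.53. The glycolytic enzyme Pgk1 (0.89) and the mitophagy receptor Bnip3 (0.86) rose most, whereas the carbonic anhydrase Car9 fell by 1.14 and the peptide hormone Adm by 0.44. With the inhibitor 7 were higher and 1 lower than on col1 (median 0.47), and 0 of 11 differed from col1-ACLP by edgeR's adjusted p. Car9 came close, with a log2 difference of 0.52 (interval 0.24 to 0.80, adjusted p = 0.0503, edgeR) and overlapping groups. Here too, a missed threshold does not show that the inhibitor left a gene as it was. Oxygen was not varied in the design.

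Hydroxylases of the same chemistry that do not act on collagen were mostly without a call. Of 7, Egln1, a prolyl hydroxylase that acts on hypoxia-inducible factor, rose by 0.50 (adjusted p = 7.50e-07, edgeR) and 6 did not pass, with a median of 0.061. Among 7 genes of ascorbate and iron supply, the transferrin receptor Tfrc rose by 0.68, whereas 3 genes fell, with ferritin heavy chain Fth1 (-0.55) and the iron transporter Slc11a2 (-0.34) lowest and a median of -0.18. For all genes tested the median was -0.0099 on col1-ACLP against col1, 0.0046 on col1-ACLP+SB against col1 and 0.0049 on col1-ACLP+SB against col1-ACLP.

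**Figure D5:**
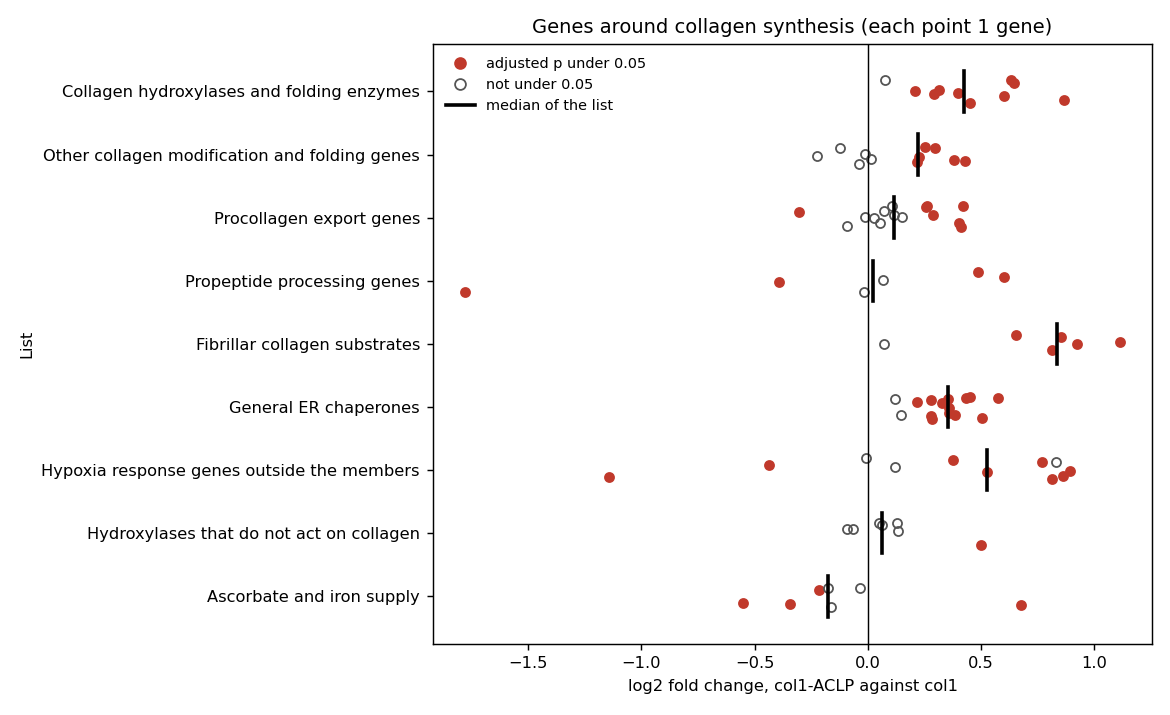
Log2 fold change on col1-ACLP against col1 of each tested gene in the 10 genes and in 8 other lists, as points, with the median of each list as a line. Colgalt2, with 2 counts over the col1 libraries, is left out as a point and is counted in its list's median. The fibrillar collagens (median 0.84), the hypoxia list (0.53) and the 10 genes (0.43) have the highest medians.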

How the data were processed

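RNA of 12 libraries (4 per group) was enriched for poly(A) and sequenced as paired-end reads of 150 bases. The authors mapped reads with HISAT2 and deposited, for 56748 genes, the counts of reads as they fell on each gene and with no scaling; the counting tool is not given in the sources used here. The submitters' processing notes name mm10 and the methods GRCm39, and the coordinates in the file are those of GRCm39. All columns of counts were used, and groups came from the labels.

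The tests used edgeR 4.0.16 under R 4.3.3 (filterByExpr, which kept 16465 genes, TMM scaling, glmQLFit and glmQLFTest on a design of group alone, Benjamini-Hochberg adjustment), with all 12 libraries in 1 fit. Intervals at 95% used the SE implied by the F statistic. The thresholds, an adjusted p of 0.05 and a log2 fold change of 0.58, are the study's. The common dispersion had a square root of 0.153. Replicates of a group differed beyond counting noise, at 7.14 to 18.3 chi-square units per degree of freedom, and each was kept as its own sample. The study calls the replicates biological. Counting error covers reads, not molecules, since reads carry no molecular identifiers. FPKM was computed from counts, gene lengths in the file and TMM library sizes. Ratios were compared by exact permutation tests.

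The 10 genes, the other lists and the alternatives were chosen with earlier results of these data known. All 10 genes are named; of each other list, at most the 2 highest and 2 lowest log2 fold changes among genes at an adjusted p under 0.05, and all fibrillar collagens. Alternatives were other scalings, filters, samples in the fit, a replicate block, DESeq2 1.42.0, limma-voom (limma 3.58.1), other thresholds and leaving out each library. The procedure was tested on simulated data; a bar on the recovery of all changed genes was missed because of genes with low counts, and was then set for genes at the level of the 10 studied here, with the procedure unchanged. Correlations of deviations between libraries of the same replicate number lay between -0.0372 and 0.0360, and the libraries were therefore treated as unpaired. The primary stromal cells and the RT-qPCR of the study were not analysed here.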

Additional observations from a re-analysis of the deposited data

Results flagged for a closer look

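In 48 sets of values, each from the 4 libraries of a group, 2 held an outlying library. Its distance to its nearest neighbour was over Dixon's 95% critical value as a share of the set's range. Chance gives about 1 in 20 for independent sets, but these sets share libraries. P4hb stood at 1458 CPM in col1-ACLP+SB replicate 3, and the other libraries of that group at 1394 to 1397. Serpinh1 stood at 2016 CPM in col1-ACLP replicate 4, and the other libraries of that group at 1850 to 1878.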

How the results depend on the processing

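The count of the 10 genes past both thresholds was 4 for col1-ACLP against col1 and 2 for col1-ACLP+SB against col1. It was 9 and 8 by the adjusted p alone, and 1 and 1 (P4ha1) by glmTreat, which tests whether the fold change itself exceeds the threshold. Leaving out single libraries gave 3 to 4 and 1 to 2, and 0 for col1-ACLP+SB against col1-ACLP. P4ha1 kept its call under all 17 alternatives in both comparisons with col1. The replicate block changed no count (4, 2 and 0). The number of genes that changed rank in level with the longest transcript was 6 for col1, 4 for col1-ACLP and 6 for col1-ACLP+SB. P4ha2, at -0.019 between col1-ACLP+SB and col1-ACLP, changed sign with library size alone (0.0079), without col1-ACLP replicate 4 (0.017) and without col1-ACLP+SB replicate 1 (0.010), over a range of left-out libraries from -0.057 to 0.017; the cause was not tested. Scaling by library size alone moved the median of all genes by -0.050, -0.024 and 0.026 in the 3 comparisons. With 4 libraries per group, the ratio tests cannot go below a p of 0.0286, and after adjustment none could be called here.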
